A study of Bos taurus with 170 samples.

Results

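The 8 Day 3 bovine embryos of the series were compared by the hour at which they were collected. Embryos Day3-E1 to Day3-E4 had been collected 67 hours post fertilization (hpf), Day3-E5 and Day3-E6 at 69 hpf, and Day3-E7 and Day3-E8 at 71 hpf. The last 4 are called the later embryos, and 67 hpf against 69 hpf or later gives 4 embryos a side. The 8 embryos are 8 of 14 in the series. They were chosen by the source label for Day 3, and their hours came from the study's list of embryos, since the sample labels give only the embryo. Of their 123 blastomeres, 118 held 2000 or more unique molecular identifiers (UMI, 1 per captured mRNA molecule) and were kept, 57 from the embryos of 67 hpf and 61 from the later embryos. They are 118 of the 161 kept cells of the series.

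All 8 embryos were labelled as 16-cell stage and had received no treatment. They came from in vitro maturation and fertilization of oocytes from slaughterhouse ovaries with frozen-thawed sperm. Culture was in synthetic oviductal fluid at low oxygen. The embryos had been selected by the timing of their early cleavages, so they are not a random draw, and neither parentage nor fertilization session was given. The 6 Day 2 embryos, labelled 8-cell stage and produced in the same way, serve as the earlier reference. The question was whether a later collection within Day 3 goes with a different transcriptome. UMI counts were summed over the blastomeres of an embryo, because cells of 1 embryo are not independent, and levels are given as CPM, the UMI of a gene scaled to a fixed total of UMI on genes per embryo.

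The early bovine embryo lives on mRNA and protein stored in the oocyte. Its own genome is switched on in a minor and then a major wave, the latter at the 8- to 16-cell stage in cattle. In this major embryonic genome activation, stored transcripts of oocyte genes are degraded while new transcripts appear, among them those for ribosomal proteins, splicing factors and the first lineage regulators. Blastomeres of 1 embryo need not pass through it at the same time.

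Collection time could not be separated from how the cells were handled as libraries. Every cell of the 67 hpf embryos carries the suffix p1 in its title, every cell of the 69 hpf embryos p3, and every cell of the 71 hpf embryos p2. The labels do not spell the suffix out. The cell barcodes, 6 bases read together with the UMI, show a second grouping, since a barcode can be used only once in a pool. Of 93 barcodes in the series, 77 were used in 2 cells each. The barcode ACCGGC, for example, marks a cell of Day3-E1 and a cell of Day3-E7, and AAAGTT marks a cell of Day2-E1 and a cell of Day3-E4. They are shown because such pairs must have been in different pools. Day3-E1 shared 14 barcodes with Day3-E7 and 1 with Day3-E8, and Day3-E2 shared 15 with Day3-E8. If the cells of an embryo were kept together, Day3-E1 and Day3-E2 fall into a first set with all Day 2 embryos. Day3-E4 and the 4 later embryos then fall into a second set. Day3-E3 shared a single barcode, AAAACT, with Day2-E1. If its cells were kept together, that places it in the second set too. The placement rests on 1 of its 16 cells, since its other 15 barcodes were found in no other cell. By barcode alone, those 15 cells could have been in either pool. That cell differed from the rest of the embryo, with 3.06 UMI on genes per UMI on the ERCC spike-in, a fixed quantity of synthetic RNA, against 61.1 to 130.7 in the other 15. Kept cells of the second set had 21.4 to 58.0 and those of the first set 45.2 to 154. The other 15 cells of Day3-E3 were thus all above the second set and within the range of the first. If the embryo was divided between pools, its cells were not kept together and the placement above does not hold for those 15. Whether it was divided was not tested. The ratio was not used to assign sets, and Day3-E3 is left unassigned below. Fits are given for its placement in either set and without it. The library pool therefore overlaps with collection time. Values called within the second barcode set compare 1 embryo of 67 hpf, Day3-E4, with the 4 later embryos.

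The summed counts were of similar depth on both sides. The embryos of 67 hpf held 600185, 294912, 381911 and 334590 UMI on genes, and the later embryos 384725, 456279, 309326 and 388452. Day3-E1 was the deepest, with a median of 44621.5 UMI per cell, against 20218 to 27301 in the other 7. Transcripts of blastomere marker genes were found in every embryo. The 7 of 10 listed markers that were in the table summed to 3279 to 5971 CPM at 67 hpf and to 1632 to 5825 CPM in the later embryos. For cumulus or granulosa cells, which surround the oocyte, 14 of 17 markers were in the table and summed to 292 to 595 CPM and 214 to 587 CPM. Most of that sum came from STAR (30.9 to 242 CPM) and HAS2 (92.7 to 300 CPM), which Day 2 embryos also carried. INHA was at 0 in 7 of the 8 embryos, and AMH and FST stayed at or below 7.8 CPM. Others on the list were higher than at Day 2 in some embryos. INHBA had 28.5 to 46.3 CPM in the later embryos, above every Day 2 embryo, and TNFAIP6 had 44.8 CPM in Day3-E4, against at most 2.28 CPM at Day 2. The part of other cells in these values was not tested. Blood markers reached at most 2.57 CPM and the sperm transcript TNP1 at most 5.15 CPM.

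No gene was called different between the sides. Of 4832 genes tested with edgeR's quasi-likelihood test, 0 (0.0%) had a Benjamini-Hochberg adjusted p under 0.05, and the lowest adjusted p was 0.9995. At an unadjusted p under 0.05 there were 147 genes (3.04%), 55 higher (1.14%) and 92 lower (1.9%) in the later embryos. DESeq2 also called 0 genes, with 188 at an unadjusted p under 0.05. The median log2 fold change over all tested genes was 0.02. The precision was limited: the median standard error of a log2 fold change was 0.45 (interquartile range 0.38 to 0.56), and 197 genes had a fitted difference of more than 1 on the log2 scale in either direction without passing the test. An absence of differences is therefore not shown.

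The main feature of the data was the distance between embryos of the same side. Of the 4832 genes, Day3-E1 had 70 more than 2-fold from the Day 2 mean, Day3-E2 1422, Day3-E3 480 and Day3-E4 2586. The later embryos had 592, 1351, 1786 and 2940, from Day3-E5 to Day3-E8. Each side thus ran from an embryo nearer to the Day 2 profile to one far from it, and the ranges overlapped over most of their length. By this count the nearest later embryo, Day3-E5, was further from Day 2 than Day3-E1 and Day3-E3. The median standard deviation of a gene's log2 level between embryos was 0.56 at 67 hpf and 0.61 in the later embryos, against 0.23 among Day 2 embryos.

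Of the 8 embryos, 3 had their nearest neighbour on the other side. Over the 4832 genes, Day3-E4 (67 hpf) and Day3-E8 (71 hpf) were each other's nearest embryo, with a Spearman rho of 0.903. Day3-E5 (69 hpf) was nearest to Day3-E1 (67 hpf), at 0.889. Within sides, Day3-E1 and Day3-E3 were nearest at 0.889, as were Day3-E6 and Day3-E7 at 0.889. The median rho was 0.759 for the 6 pairs at 67 hpf, 0.785 for the 6 later pairs and 0.802 for the 16 pairs across sides, against 0.960 for the 15 pairs of Day 2 embryos. These correlations run across genes, which are not independent, and pairs share embryos, so they are given as a description. Day3-E4 and Day3-E8 were both in the second barcode set, while Day3-E5 and Day3-E1 were in different sets.

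**Figure D1:**
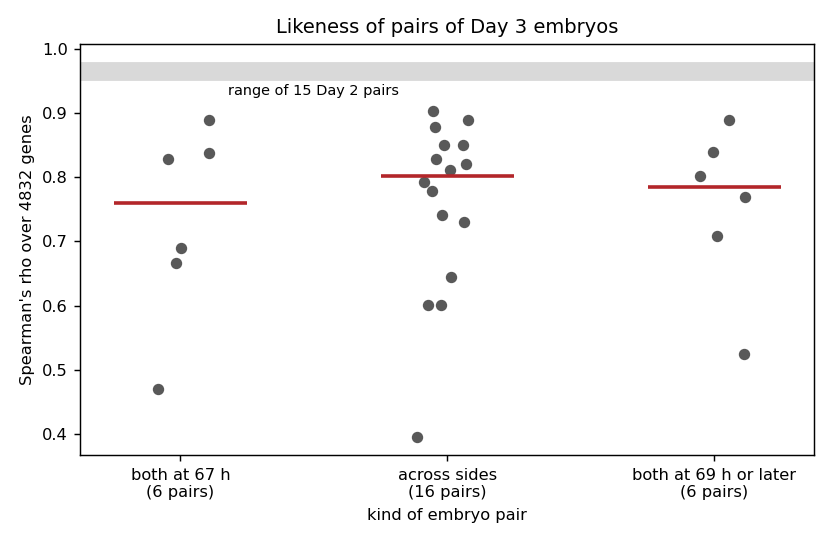
Spearman's rho over 4832 genes (y axis) for each pair of Day 3 embryos (points) by whether both were collected at 67 hpf, both at 69 hpf or later, or 1 on each side (x axis), with the median of each kind (red line) and the range of Day 2 pairs (grey). Pairs across sides reach from 0.396 to 0.903 and cover the values of pairs within a side.

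The activation genes differed as much within a side as the whole set of Day 3 embryos did. This list holds the 20 genes detected in these data out of a longer list. Other work had found the genes of that longer list transcribed at the 8-cell stage and absent earlier. Their summed level was 130 CPM in Day3-E1, 1021 in Day3-E2, 429 in Day3-E3 and 2074 in Day3-E4. The later embryos had 296, 872, 1002 and 2132 CPM, in the order of their numbers. Day3-E1 lay inside the Day 2 range of 88.3 to 165 CPM, all other embryos lay above it, and the sides overlapped. Of the 6 members with enough counts to be tested, 0 were called between the sides, 6 were higher in the later embryos, and their median log2 fold change was 0.21, against 0.02 over all genes. That median was 1.54 without Day3-E4, -0.48 without Day3-E8 and -0.64 within the second barcode set. With barcode set as a term and Day3-E3 in the second set it was -0.03. That term gave -0.52 with Day3-E3 in the first set and -0.65 with it left out.

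FOLR1, the folate receptor, is 1 of these genes. Its level was 10.0, 288, 107 and 1121 CPM in Day3-E1 to Day3-E4, and 107, 309, 304 and 1112 CPM in Day3-E5 to Day3-E8. The 2 highest embryos were 1 from each side, and the values of the other 6 were interleaved. KLF5, a transcription factor of the early lineages, is not an activation gene of this list. The study named it as a marker of its cell cluster K4 and cites earlier work that found its transcripts in the oocyte. KLF5 had 10.0, 102, 52.4 and 374 CPM at 67 hpf and 15.6, 83.3, 97.0 and 288 CPM later. ADAMTS1, a secreted protease on the activation list, was at 0, 13.6, 26.2 and 98.6 CPM and then at 39.0, 193, 80.8 and 77.2 CPM. In all 3 genes the sides overlapped.

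A similar order of embryos was seen in the genes the study had named as markers of its cell cluster K4. The study placed only cells of Day3-E4, Day3-E7 and Day3-E8 in that cluster, most of them from Day3-E4 and Day3-E8. High levels in Day3-E4 and Day3-E8 thus follow from how the genes were picked. They are no independent evidence of a direction against Day 2 or of the order of the embryos. The same holds for FOLR1, KLF5 and NANOG, which are among these markers. The 88 genes summed to 2326, 19616, 6643 and 34311 CPM at 67 hpf and to 5461, 12085, 19171 and 41385 CPM later. Day3-E4 exceeded 3 of the 4 later embryos, and Day3-E1 and Day3-E5 were the lowest of their sides. Of 87 tested, 0 were called, 74 were higher and 13 lower in the later embryos, with a median log2 fold change of 0.41. The median was 1.39 without Day3-E4, -0.53 without Day3-E8 and -0.81 within the second barcode set. With barcode set as a term and Day3-E3 in the second set, the median was close to 0. It was -0.80 with Day3-E3 in the first set and -0.82 with Day3-E3 left out. Among them, NAA11, an N-acetyltransferase subunit, had 10.0, 125, 34.0 and 173 CPM against 33.8, 83.3, 213 and 451 CPM.

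**Figure D2:**
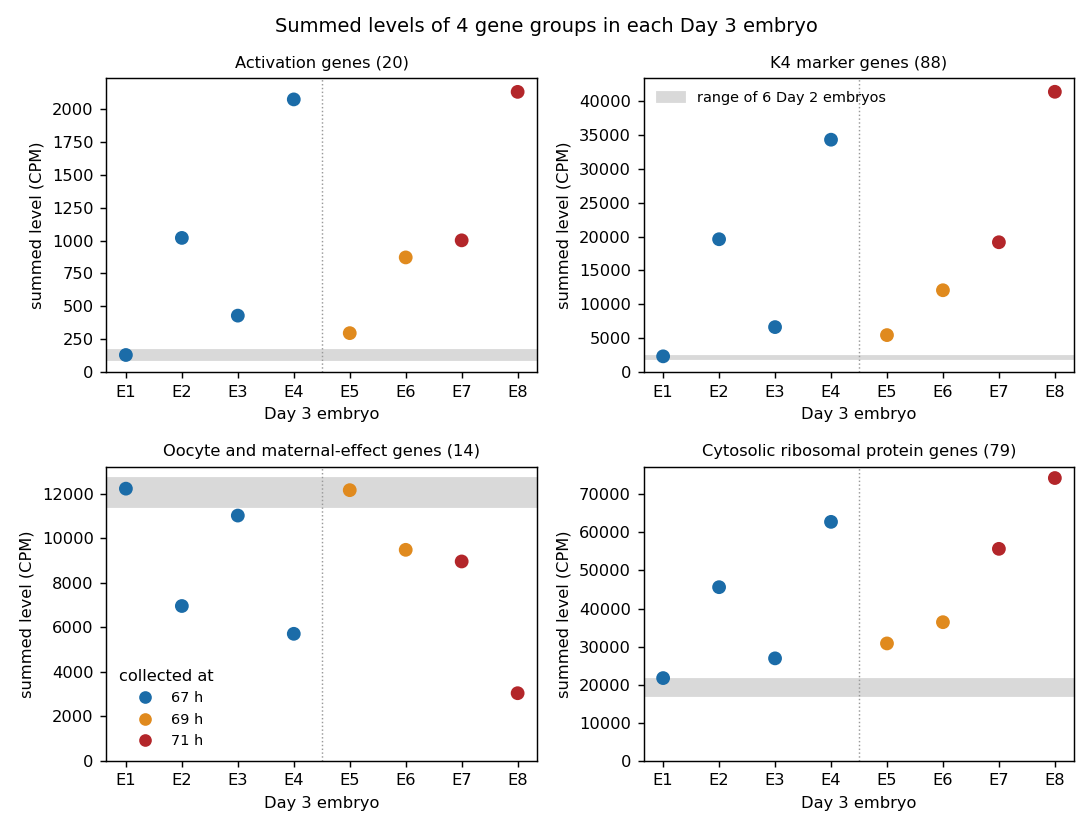
Summed level in CPM (y axis) of 4 gene groups in each Day 3 embryo (x axis), coloured by hours post fertilization at collection, with the range of the 6 Day 2 embryos in grey and a dotted line between the sides. On each side the embryos run from nearer to the Day 2 range to further from it, as in the activation genes with 130 to 2074 CPM at 67 hpf and 296 to 2132 CPM later.

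Transcripts stored by the oocyte ran the opposite way. The 14 oocyte and maternal-effect genes of the table summed to 12221, 6951, 11013 and 5703 CPM at 67 hpf and to 12154, 9474, 8952 and 3035 CPM later, beside 11376 to 12705 CPM in Day 2 embryos. By this sum Day3-E1 and Day3-E5 were still in the Day 2 range, 1 on each side, and Day3-E8 was lowest. In Day3-E5 the sum hides members that differed from Day 2 in opposite directions. There GDF9, NPM2 and NLRP5 were below every Day 2 embryo, whose lowest values were 864, 1062 and 246 CPM. H1FOO was above every Day 2 embryo, of which the highest had 1030 CPM. Between the sides 0 of 14 were called, with 5 higher, 9 lower and a median log2 fold change of -0.21. The median was 0.01 without Day3-E8 and 0.74 within the second barcode set. It was -0.07 with barcode set as a term and Day3-E3 in the second set. That term gave 0.705 with Day3-E3 in the first set and 0.746 with it left out. NLRP5, a maternal-effect component of the subcortical complex of the oocyte, had 337, 105, 251 and 68.7 CPM at 67 hpf and 140, 35.1, 64.7 and 36.0 CPM later. The sides overlapped, and its log2 fold change was -1.38 (SE 0.55, unadjusted p = 0.0295 in edgeR). GDF9, the oocyte growth factor, had 985, 454, 725 and 149 CPM against 697, 359, 304 and 111 CPM, and NPM2, the oocyte nucleoplasmin, 1083, 766, 1066 and 263 CPM against 840, 438, 394 and 162 CPM. In both genes, Day3-E8 was below every embryo of 67 hpf and the other 3 later embryos were not. H1FOO, the oocyte linker histone, had 990, 543, 762 and 475 CPM and then 1391, 1098, 1012 and 283 CPM. Here 3 of the 4 later embryos were above all embryos of 67 hpf, and Day3-E8 was below them all. The log2 fold change was 0.48 (SE 0.41).

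Among the 12 marker genes of the study's K1 cluster, which was also defined on these cells, 7 could be tested. Of the Day 3 embryos, only Day3-E1, Day3-E2 and Day3-E3, all of 67 hpf, had cells in that cluster. Lower levels of its markers in the later embryos thus follow from how they were picked and are no independent evidence. All 7 were lower in the later embryos, 0 were called, and the median was -0.63. It was 0.49 within the second barcode set, and -0.24 with barcode set as a term and Day3-E3 in the second set. That term gave 0.47 with Day3-E3 in the first set and 0.50 with it left out. COG2, a Golgi tethering subunit, had 100.0, 81.4, 96.9 and 14.9 CPM at 67 hpf. The later embryos had 33.8, 8.77, 9.70 and 7.72 CPM. Day3-E4 lay inside the later range, so the sides overlapped. The log2 fold change was -2.19 (SE 0.62, unadjusted p = 0.00484, adjusted p = 0.9995 in edgeR).

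The single cells gave the same order of embryos as the sums. Each cell was thinned to 10000 UMI, which left 11 to 14 cells per embryo. The K4 markers had medians over cells of 2500, 18700, 5600 and 32300 CPM in Day3-E1 to Day3-E4 and of 4700, 13550, 15500 and 42350 CPM in Day3-E5 to Day3-E8. The lowest cell of Day3-E4 (27100 CPM) was above the highest cell of Day3-E1 (3800 CPM), although both embryos were collected at 67 hpf. Among the later embryos, the lowest cell of Day3-E8 (30700 CPM) was above the highest of Day3-E5 (10400 CPM) and Day3-E6 (18100 CPM). The markers had been picked to set cells of Day3-E4, Day3-E7 and Day3-E8 apart from the rest. These separations therefore follow from that choice and are a description only. Day3-E7 had the widest spread, from 12200 to 42400 CPM. The lowest cells of Day3-E3 (2100 CPM) and Day3-E6 (2200 CPM) fell within the Day 2 cells, which reached 3000 CPM.

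**Figure D3:**
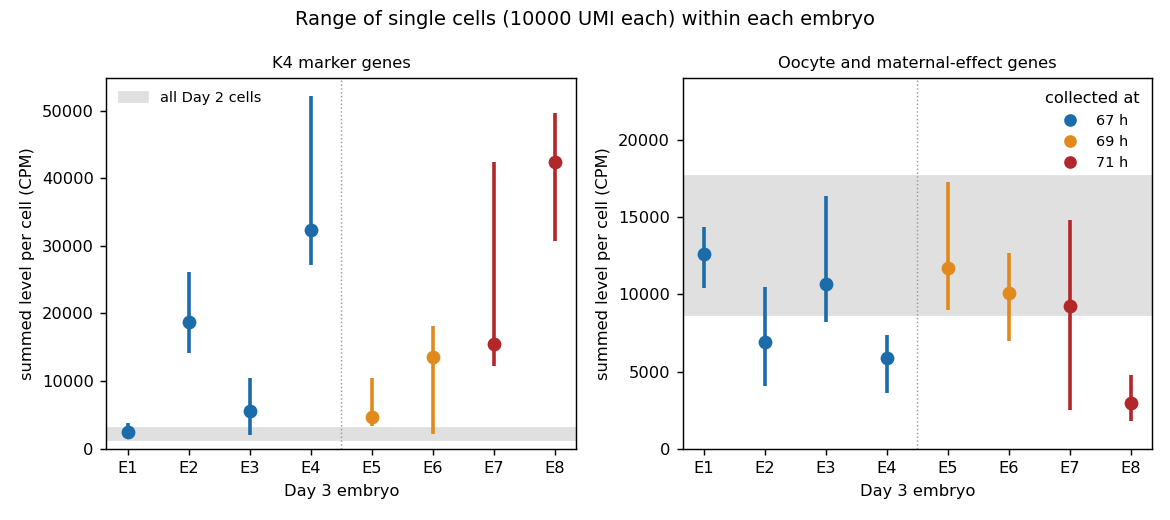
Summed level per cell in CPM (y axis) of the K4 markers (left) and of the oocyte and maternal-effect genes (right) in cells thinned to 10000 UMI, by embryo (x axis). Points give the median cell, bars the lowest to the highest cell, and grey the range of all Day 2 cells. No cell of Day3-E4 overlaps a cell of Day3-E1 in either group. For the K4 markers, this follows from how they were picked.

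The oocyte genes gave the mirror image in the same cells. The medians over cells were 12600, 6900, 10700 and 5900 CPM at 67 hpf and 11700, 10100, 9250 and 2950 CPM later. The highest cell of Day3-E4 (7400 CPM) was below the lowest of Day3-E1 (10400 CPM). In Day3-E7 the cells ran from 2500 to 14800 CPM.

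The spread among the cells of an embryo, taken as 1 minus the mean Spearman correlation of its thinned cells, was 0.460, 0.483, 0.488 and 0.480 at 67 hpf. It was 0.507, 0.517, 0.526 and 0.446 in the later embryos. Of these, 3 were above all embryos of 67 hpf and Day3-E8 was below them all, and the difference of 0.0213 did not pass (exact permutation p = 0.314, adjusted p = 0.524). Genes detected per thinned cell were 3260, 3296, 3267 and 3010 at 67 hpf and 3209, 3089.5, 3073 and 2887 later. The Day 2 range was 3278 to 3383. The side means differed by -144 genes (exact permutation p = 0.229, adjusted p = 0.524). With 4 embryos against 4, the smallest two-sided p that these tests can give is 0.0286, and 5 such values were tested.

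The amount of cellular RNA relative to the ERCC spike-in differed between the embryos assigned to the first and to the second barcode set. It was 70.5, 67.3, 67.9 and 32.7 UMI on genes per ERCC UMI in Day3-E1 to Day3-E4. In Day3-E5 to Day3-E8 it was 40.2, 32.6, 33.9 and 39.0. Day3-E4, of the second set, lay among the later embryos, and Day3-E1 and Day3-E2 lay in the Day 2 range of 64.8 to 71.7, which belongs to the first set. Day3-E3 lay in that range as well, but 1 cell pulled its value down. That cell, with barcode AAAACT, held 1366 of the embryo's 5622 ERCC UMI and 4177 of its 381911 UMI on genes. Without that cell the ratio of Day3-E3 is higher, and it was not computed. If Day3-E3 belongs to the second set, the ratio does not follow the set. The side means of 59.6 ± 18.0 and 36.4 ± 3.74 (SD, n = 4 each) gave an exact permutation p of 0.114 (adjusted p = 0.524). The part of the barcode set in this ratio was not tested.

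**Figure D4:**
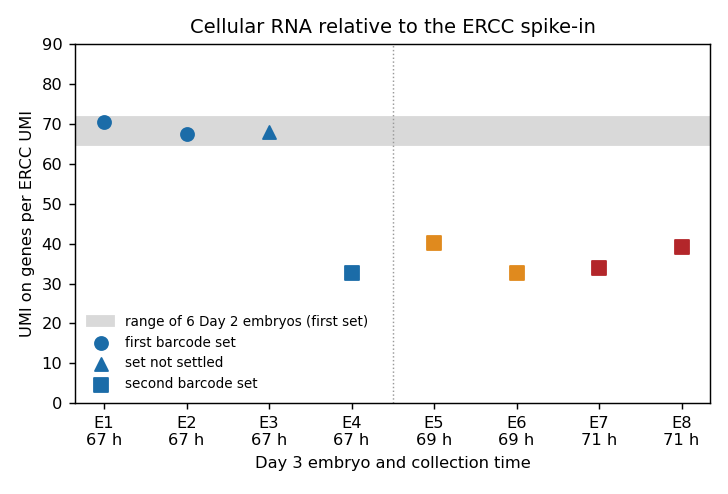
UMI on genes per ERCC UMI (y axis) in each Day 3 embryo (x axis, with hours post fertilization), with the marker giving the barcode set and grey the range of the 6 Day 2 embryos. The 5 embryos of the second set lie between 32.6 and 40.2 and the other 3 between 67.3 and 70.5.

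A small number of genes did not overlap between the sides. In 29 of the 4832 tested genes (0.6%) all 4 later embryos were above the 4 of 67 hpf, and in 71 (1.47%) all 4 were below, 2.07% together. None of these genes passed the test, and the genes named next are those with the smallest unadjusted p in each direction, so their order is a description.

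ZNF296, a zinc-finger transcription factor, was the first of the genes with higher levels. It had 172, 119, 202 and 203 CPM at 67 hpf and 426, 491, 443 and 245 CPM later. In Day 2 embryos it had 8.55 to 34.2 CPM, so every Day 3 embryo was above that range. The log2 fold change between the sides was 1.23 (SE 0.32, unadjusted p = 0.00305, adjusted p = 0.9995 in edgeR). The lowest later embryo was Day3-E8, which had the highest sum of activation genes.

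RBM38, an RNA-binding protein that stabilises mRNA of a cell-cycle inhibitor, had 347, 319, 618 and 472 CPM against 837, 986, 1371 and 623 CPM. The gap between the sides was narrow, since Day3-E3 and Day3-E8 were nearly equal. TMEM201, a protein of the inner nuclear membrane, had 24.99, 44.1, 31.4 and 23.9 CPM against 62.4, 65.7, 74.4 and 113 CPM. Its log2 fold change was 1.47 (SE 0.43). At Day 2 TMEM201 had 29.6 to 78.2 CPM, a range that reached into that of the later embryos.

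Secreted factors were among the remaining genes. INHBA, the subunit of activin A and also on the granulosa list, had 20.0, 6.78, 18.3 and 5.98 CPM at 67 hpf and 28.6, 28.5, 45.3 and 46.3 CPM later, from 23 and 56 UMI in all. STC1, the glycoprotein hormone stanniocalcin, had 21.7, 3.39, 26.2 and 20.9 CPM against 98.8, 48.2, 42.0 and 36.0 CPM. In STC1 the highest values were at 69 hpf, not at 71 hpf. The other 5 genes were SLC12A5, a potassium-chloride cotransporter, PI4K2A, a lipid kinase, SCPEP1, a carboxypeptidase, ABHD11, a mitochondrial hydrolase, and RPL28, a ribosomal protein. Their log2 fold changes lay between 0.85 (RPL28) and 1.62 (PI4K2A).

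Among the genes with lower levels, MNS1, a structural protein of cilia and flagella, had the smallest unadjusted p of all 4832 genes. It had 217, 109, 186 and 80.7 CPM at 67 hpf and 54.6, 32.9, 51.7 and 28.3 CPM later. The 67 hpf values were close to those of Day 2 embryos (130 to 250 CPM) in Day3-E1 and Day3-E3, and below them in Day3-E2 and Day3-E4. The log2 fold change was -1.74 (SE 0.38, unadjusted p = 0.000907, adjusted p = 0.9995 in edgeR).

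RARS, arginyl-tRNA synthetase, had 565, 383, 511 and 245 CPM against 211, 164, 158 and 142 CPM. HSPD1, the mitochondrial chaperonin, had 76.6, 67.8, 99.5 and 56.8 CPM against 39.0, 28.5, 19.4 and 15.4 CPM. CROT, a peroxisomal acyltransferase, had 310, 271, 291 and 143 CPM against 140, 94.2, 93.8 and 72.1 CPM. In all 3 genes Day3-E4 was the lowest of its side, and in CROT it was almost level with Day3-E5. Their log2 fold changes were -1.24 (SE 0.30), -1.49 (SE 0.37) and -1.27 (SE 0.32).

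The other 6 genes were KPNB1, the nuclear import receptor importin beta, NRBP1, a pseudokinase, UVRAG, an autophagy and endosome factor, RUFY2, an endosomal protein, ACAP2, a GTPase-activating protein for ARF6, and UFL1, the ligase for the modifier UFM1. Their log2 fold changes lay between -1.72 (RUFY2) and -1.19 (UVRAG). In each of the 6, Day3-E4 was the lowest embryo of 67 hpf. RUFY2 is also among the K1 markers.

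**Figure D5:**
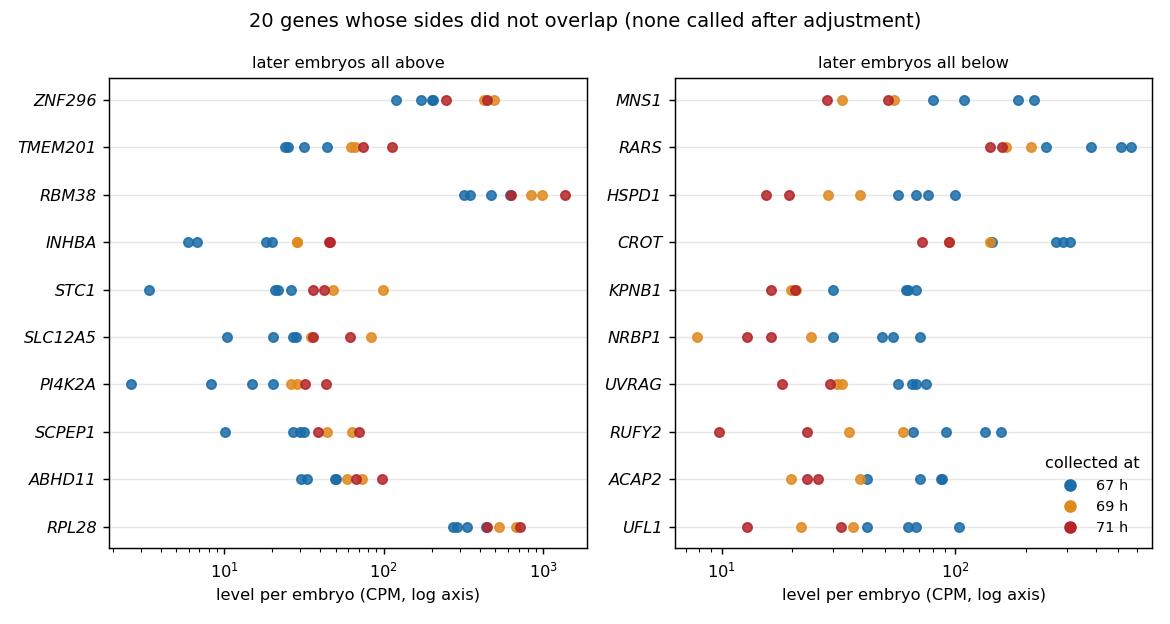
Level in CPM (x axis, log scale) of the 20 named genes whose sides did not overlap (y axis), with 1 point per Day 3 embryo coloured by hours post fertilization at collection. None of the 20 passed the test after adjustment, and in several, such as CROT with 143 and 140 CPM, the nearest embryos of the 2 sides almost touch.

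A slope on the hour of collection gave the same outcome. Of 4832 genes, 0 (0.0%) were called, the lowest adjusted p was 0.794, and 247 (5.11%) had an unadjusted p under 0.05 in edgeR. Without Day3-E4 that last number was 1108, and 0 genes were called. In full time order, all embryos of 67 hpf, then 69 hpf, then 71 hpf without overlap, 4 genes had levels in rising order (0.0828%) and 21 in falling order (0.435%). The share that random orders would give was not worked out.

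The 4 genes with levels in rising order were TSN, TMEM201, INHBA and PI4K2A. TMEM201 had 29.6 to 78.2 CPM at Day 2, so its rising order covers Day 3 only. TSN, the nucleic acid-binding protein translin, had 83.3, 74.6, 96.9 and 89.7 CPM at 67 hpf, 98.8 and 118 CPM at 69 hpf, and 191 and 332 CPM at 71 hpf. Its slope was 0.44 per hour on the log2 scale (SE 0.10, unadjusted p = 0.00155 in edgeR). At 67 hpf it was inside or just under the Day 2 range of 82.2 to 109 CPM.

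In falling order, RUFY2 had 157, 91.6, 134 and 65.8 CPM, then 59.8 and 35.1 CPM, then 9.70 and 23.2 CPM. Its slope was -0.62 per hour (SE 0.14, unadjusted p = 0.000825 in edgeR). APLF, a DNA repair factor, had 85.0, 139.02, 128 and 74.7 CPM, then 70.2 and 63.6 CPM, then 29.1 and 15.4 CPM. SCFD1, a regulator of vesicle fusion between endoplasmic reticulum and Golgi, went from 123 to 223 CPM at 67 hpf to 38.6 and 67.9 CPM at 71 hpf. The gene ERCC5, a DNA repair nuclease unrelated to the spike-in, went from 71.7 to 150 CPM to 25.7 and 38.8 CPM. In SCFD1 and ERCC5 the 67 hpf embryo nearest to the later values was again Day3-E4.

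The lineage regulators were also compared by the share of cells in which they were detected. For each gene the share of thinned cells with a UMI was taken per embryo, and none of 9 genes passed (exact permutation p from 0.286 to 1.0, adjusted p = 1.0 for each). These shares depend on depth, so cells of equal depth were used, 50 at 67 hpf and 53 later.

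NANOG, a pluripotency factor, was detected in 0, 0, 7.69 and 72.7% of the thinned cells of Day3-E1 to Day3-E4. The later embryos had 15.4, 14.3, 33.3 and 64.3%. Day3-E4 had the highest share of all, and the Day 2 mean was 2.08%. Without thinning the shares were 7.14, 21.4, 31.2 and 84.6% and then 11.76, 57.1, 60.0 and 80.0%, in which the sides again overlapped. The summed level was 1.67, 13.6, 23.6 and 176 CPM against 10.4, 48.2, 71.1 and 92.7 CPM.

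MYC was found in 7.69, 30.8, 7.69 and 54.5% of cells at 67 hpf and in 7.69, 71.4, 16.67 and 21.4% later, against 0% of Day 2 cells. Without thinning the shares were 14.29, 28.6, 37.5 and 76.9% and then 23.5, 100, 33.3 and 60%. Day3-E6 stood highest either way. PCDH10, a protocadherin, was found in 0, 38.5, 0 and 27.3% and then in 0, 0, 16.67 and 50.0%. Without thinning the shares were 0, 57.1, 12.5 and 30.8% and then 5.88, 7.14, 26.7 and 66.7%, so that only Day3-E1 was without a positive cell. KLF4, a zinc-finger factor, was found in 61.5% of cells of Day3-E1 and in 100% of cells of the other 7 embryos, and without thinning in 92.9% of the cells of Day3-E1. SALL4 was found in 100% of the cells of each 67 hpf embryo and in 92.3, 100, 91.7 and 100% later.

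POU5F1 was found in 30.8, 30.8, 38.5 and 9.09% of cells at 67 hpf and in 38.5, 50.0, 41.7 and 21.4% later. On each side the embryo with the highest activation sum had the lowest share. Without thinning, POU5F1 was found in 100% of the cells of the deeply sequenced Day3-E1, in 7.69 to 50% of the others at 67 hpf and in 33.3 to 64.3% later. FOSL1, linked to trophoblast, was found in 38.5, 15.4, 30.8 and 0% and then in 46.2, 42.9, 25 and 7.14%, again lowest in Day3-E4 and Day3-E8. CDX2, the trophectoderm factor, was found in 3 of 50 thinned cells at 67 hpf and in 5 of 53 later, and in 7 of 57 and 7 of 61 without thinning. SALL1 was found in 3 of 50 and 3 of 53, and in 11 of 57 and 8 of 61 without thinning. Counts this low set no order between the sides. TFAP2C, another trophectoderm factor, had 43.3, 587, 487 and 768 CPM and then 263, 927, 957 and 994 CPM, with Day3-E1 and Day3-E5 the lowest of their sides.

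Other genes that the study had named varied in the same manner. RHEBL1, a GTPase related to the mTOR activator Rheb, had 63.3, 163, 249 and 577 CPM at 67 hpf and 359, 820, 698 and 409 CPM later. Here Day3-E6 and not Day3-E8 was highest. The study had named RHEBL1 as the marker of its cell cluster K2, whose cells were all from Day3-E5, Day3-E6 and Day3-E7. GRO1, a chemokine gene, had 13.33, 471, 94.3 and 218 CPM against 5.20, 24.1, 35.6 and 108 CPM. Day3-E2 was highest, and the sides overlapped. The log2 fold change of GRO1 was -2.04 with a standard error of 1.04, so the data hold little information on its difference.

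Genes of protein synthesis varied with the embryo as well. The 79 cytosolic ribosomal protein genes summed to 21727, 45610, 26909 and 62766 CPM at 67 hpf and to 30830, 36412, 55679 and 74282 CPM later. Of 76 tested, 0 were called, 68 were higher and 8 lower in the later embryos, and the median log2 fold change was 0.35, against 2516 higher and 2316 lower genes among all 4832. The median was 0.83 without Day3-E4, -0.14 without Day3-E8 and -0.39 within the second barcode set. As a term with Day3-E3 in the second set, barcode set left it at 0.11. The same term gave -0.41 with Day3-E3 in the first set and -0.40 with Day3-E3 left out. RPS20 had 681, 939, 563 and 1324 CPM against 1081, 1070, 1545 and 1797 CPM. Ribosomal protein genes have many near-identical pseudogene copies, among which reads may have been split. Translation factors (45 tested, 32 higher, median 0.19), spliceosome genes (67 tested, 49 higher, median 0.22) and ribosome biogenesis genes (60 tested, 35 higher, median 0.12) held 0 called genes each. These 3 medians were negative without Day3-E8 (-0.08, -0.19 and -0.32) and within the second barcode set (-0.06, -0.21 and -0.20), in that order. Of the spliceosome, SRSF7 had 112, 210, 183 and 248 CPM and then 198, 274, 430 and 914 CPM, and HNRNPH1 had 71.6, 342, 267 and 583 CPM and then 465, 618, 837 and 842 CPM.

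Chromatin genes were mixed. Of 17 histone genes tested, 12 were higher in the later embryos (median 0.48), while of 9 DNA methylation genes 7 were lower (median -0.35) and of 25 histone-modifying genes 16 were lower (median -0.22). In none of these groups was a gene called. The histone median was -0.03 without Day3-E8 and -0.38 within the second barcode set. It was 0.02 with barcode set as a term and Day3-E3 in the second set. That term gave -0.43 with Day3-E3 in the first set and -0.41 with it left out. The DNA methylation median was -0.13 without Day3-E8 and 0.12 within the second barcode set. The histone sum was 3717, 9220, 5805 and 15096 CPM and then 6311, 9880, 12097 and 14869 CPM, with the highest embryo at 67 hpf. The DNA methylation sum was 3975, 3133, 4087 and 1940 CPM and then 3824, 2816, 2373 and 1498 CPM.

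Genes of the cell cycle and of DNA replication were centred near the value of all genes. The medians were 0.06 over 32 cell cycle and mitosis genes and -0.10 over 32 DNA replication genes, with 0 called in either. POLA1, the catalytic subunit of DNA polymerase alpha, had 68.3, 57.6, 41.9 and 26.9 CPM and then 20.8, 37.3, 3.23 and 2.57 CPM. PCNA, the replication clamp, ran the other way, with 162, 509, 346 and 547 CPM and then 205, 622, 1196 and 942 CPM. In both, the values of 69 hpf fell inside or close to those of 67 hpf.

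Of the protein-folding and degradation genes, 0 of 41 chaperone and stress genes and 0 of 34 proteasome genes were called. HSPB1, a small heat shock protein, had 30.0, 3.39, 31.4 and 8.97 CPM against 96.2, 87.7, 71.1 and 28.3 CPM. Of the later embryos 3 were above all of 67 hpf, and Day3-E8 was not. The log2 fold change was 1.92 (SE 0.56, unadjusted p = 0.00589, adjusted p = 0.9995 in edgeR), from 34 and 110 UMI. At Day 2 HSPB1 had 40.9 to 62.7 CPM, above all embryos of 67 hpf and above Day3-E8. PSMA4, a proteasome core subunit, had 253, 254, 262 and 77.7 CPM against 130, 74.5, 58.2 and 61.8 CPM, in which Day3-E4 sat with the later embryos. PSMG1, a proteasome assembly factor, had 163, 129, 102 and 44.8 CPM against 72.8, 52.6, 29.1 and 28.3 CPM.

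The remaining groups gave no called gene either. Of 6 immediate early genes, 6 were higher (median 0.32), and DUSP1, a stress-responsive phosphatase, had 48.3, 417, 202 and 338 CPM and then 122, 601, 401 and 505 CPM. Glycolysis and pentose phosphate genes (17 tested, 13 higher, median 0.30) included GPI, with 195, 176, 165 and 111 CPM and then 213, 267, 265 and 224 CPM, whose sides did not overlap. Signalling ligands and matrix genes (10 tested, 8 lower, median -0.21) included LAMC1, a laminin chain, with 180, 156, 220 and 108 CPM and then 78.0, 107, 55.0 and 64.4 CPM. XRN1, the main cytoplasmic exonuclease of mRNA decay, had 182, 146, 246 and 98.6 CPM and then 80.6, 92.0, 55.0 and 79.8 CPM. For LAMC1 and XRN1 the sides did not overlap, and Day3-E4 was again the nearest to the later embryos. Among adhesion genes (17 tested, 8 higher), PCDH8, a protocadherin, had 5.00, 139.02, 23.6 and 281 CPM and then 80.6, 127, 343 and 636 CPM. Oxidative phosphorylation, mitochondrial ribosome, cholesterol, nucleotide, mTOR, mRNA decay, zinc finger, solute carrier and pluripotency and trophectoderm factor lists had medians from -0.15 to 0.14.

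Each side was also set against the 6 Day 2 embryos, in 1 fit of 14 embryos. Both comparisons share the Day 2 embryos, so their values stand side by side. The fit used 1 shared estimate of the spread. The median standard deviation between embryos was 0.23 at Day 2, but 0.56 at 67 hpf and 0.61 later. Standard errors and p-values from this fit may therefore be too small, and the counts of called genes too large. Of 5694 genes tested, 820 (14.4%) were called at 67 hpf, 747 higher (13.1%) and 73 lower (1.28%) than at Day 2. In the later embryos 2101 (36.9%) were called, 1254 higher (22.0%) and 847 lower (14.9%). At an unadjusted p under 0.05 there were 1648 (28.9%) and 2678 (47.0%). All Day 2 embryos were in the first barcode set and all later embryos in the second, so pool and day cannot be told apart in the later comparison. The title suffixes fall otherwise, with p3 or p2 on all Day 2 and later embryos and p1 on the 67 hpf embryos alone. Suffix and day therefore cannot be told apart in the 67 hpf comparison. A larger count in 1 of these comparisons is not a test of a difference between the sides, which called 0 genes in the same fit of 14 embryos.

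These counts varied with the embryos in the fit, at 67 hpf most of all. Without Day3-E4, 256 genes were called at 67 hpf, without Day3-E2 500, and without Day3-E1 1393. With only Day3-E1 and Day3-E2, the Day 3 embryos of the first barcode set, 351 were called. For the later embryos the count ran from 1561 without Day3-E8 to 2500 without Day3-E5. Without scaling beyond the library total, the later embryos had 987 higher and 1127 lower genes, beside 1254 higher and 847 lower with it. That scaling choice moved the median of all genes from -0.01 to -0.28 on the log2 scale in the later embryos, and from -0.03 to -0.23 at 67 hpf.

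Of 76 cytosolic ribosomal protein genes, 41 were called higher at 67 hpf and 67 in the later embryos, with medians of 1.45 and 1.71, beside 13.1% and 22.0% called higher over all genes. None were called lower on either side. Of 14 oocyte and maternal-effect genes, 1 was called lower at 67 hpf and 7 were called lower later, with medians of -0.47 and -0.65, beside 1.28% and 14.9% called lower over all genes. The activation genes and K4 markers are not counted here, since the former were defined by their absence at earlier stages and the latter were chosen on these cells. Among the genes named above, ZNF296 rose by 3.34 at 67 hpf and by 4.57 later on the log2 scale (adjusted p = 1.83e-05 and 6.18e-07 in edgeR). MNS1 was at -0.05 (adjusted p = 0.907) and -1.80 (adjusted p = 0.000431), and HSPD1 at -0.37 (adjusted p = 0.284) and -1.87 (adjusted p = 0.000154). ZNF296, MNS1 and HSPD1 were picked by their difference between the sides in these same embryos. Their values against Day 2 are therefore no independent evidence of a change after 67 hpf.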

How the data were processed

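Blastomeres of in vitro produced bovine embryos had been sequenced by SCRB-Seq. The authors mapped the reads to Bos tau7 and the ERCC sequences with STAR 2.5.2b and deposited whole-number UMI counts made with the Drop-seq pipeline. The deposited normalised table was not used. The table held 170 cells, 10772 genes and 92 ERCC rows. Cells with 2000 or more UMI were summed per embryo, without ERCC. Counts were tested with edgeR 4.0.16 (R 4.3.3) by the quasi-likelihood test with TMM scaling and filterByExpr, Benjamini-Hochberg adjustment over all genes tested, and a call at an adjusted p under 0.05. CPM are UMI divided by the total on genes and scaled to 1000000, without TMM. Per-embryo values were compared by two-sided exact permutation tests over 70 splits (scipy 1.17.1), adjusted over 5 values and 9 shares. Likeness used log2(CPM + 10).

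Collection hours came from the study's list of embryos. Nothing says that embryos of a side came from separate fertilizations, so p-values measure the spread between these embryos only. The embryos and gene lists were chosen with earlier results of these data known. Named genes were, per direction, the 10 with the smallest unadjusted p whose sides did not overlap, up to 6 in time order, up to 4 per list with the smallest unadjusted p, and the study's lineage, activation and cluster marker genes. Genes whose fitted difference changed sign under an alternative were given as levels only, a choice made after their values were seen.

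Alternatives were other scaling, no filter, DESeq2 1.42.0, leaving out each embryo, barcode set as a term, all cells, thinned cells and single hours. The scripts were tested on simulated counts.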

Additional observations from a re-analysis of the deposited data

Results flagged for a closer look

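In 210 groups of 4 embryos examined, 13 values stood apart from the other 3 of their side by Dixon's criterion at the 95% level, and chance flags about 1 group in 20. Of these, 7 belong to Day3-E4 among the embryos of 67 hpf. It had 3010 genes per thinned cell (others 3260 to 3296), 32.7 UMI on genes per ERCC UMI (others 67.3 to 70.5), NANOG in 72.7% of thinned cells (others 0 to 7.69%) and at 176 CPM (others 1.67 to 23.6), KPNB1 at 29.9 CPM (others 61.6 to 67.8), FOSL1 at 2.99 CPM (others 27.1 to 31.7) and PSMA4 at 77.7 CPM (others 253 to 262). Day3-E4 is also in the second barcode set, with Day3-E1 and Day3-E2 in the first and Day3-E3 unassigned, and the part of that set in these values was not tested. Leaving Day3-E4 out left 0 genes called between the sides, with 462 at an unadjusted p under 0.05.

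Day3-E1 had a median of 44621.5 UMI per cell (others 20218 to 23491), KLF4 in 61.5% of thinned cells (others 100%) and 1.67 CPM of blood and sperm markers (others 0), which is a single UMI. In the later embryos, Day3-E5 had 263 CPM of TFAP2C (others 927 to 994) and 33.8 CPM of COG2 (others 7.72 to 9.70). SALL1 was found in 0% of the thinned cells of Day3-E7 (others 7.14 to 7.69%).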

How the results depend on the processing

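The count of 0 genes called between the sides and with collection hour was the same under every alternative run, with 40 to 559 genes at an unadjusted p under 0.05 between the sides. The 38 genes given with a fold change were chosen because their sign was the same in all 740 refits, and their adjusted p ran from 0.0706 (MNS1, RARS, HSPD1 and CROT, 14 embryos in the fit) to 1.0. The 19 tested genes given as levels changed sign in 70 of 375 refits. Against Day 2, leaving out an embryo gave 256 to 1393 genes at 67 hpf and 1561 to 2500 later, and the first barcode set alone gave 351 at 67 hpf. Medians of gene lists turned with the embryos in the fit, from -1.10 to 1.54 for the activation genes and from -1.03 to 1.39 for the K4 markers, the lowest at 69 hpf against 67 hpf and the highest without Day3-E4. Leaving out an embryo moved the side difference in median UMI per cell from -6126 to 2009.

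Shares of cells, as later minus 67 hpf in percentage points, changed sign without thinning for POU5F1 (-2.42), CDX2 (-0.134) and SALL4 (2.24), and at 5000 UMI for POU5F1 (-10.3), NANOG (-2.23) and PCDH10 (-2.94). Leaving out an embryo gave -9.91 to 13.92 for MYC, -3.13 to 2.93 for SALL1 and -10.9 to 7.58 for PCDH10. With 8 embryos none of these differences passed the exact permutation test, and with an embryo left out the smallest p it can give is 0.0571, so those settings could not pass.

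No paired analysis was possible because the sides share no embryo number, and the numbers that the 67 hpf and Day 2 embryos share only name embryos. Depth limits genes with few UMI: shares of CDX2, SALL1 and PCDH10 rest on 3 to 9 cells per side.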
